A study of Homo sapiens with 6 samples.

Results

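The genes described here encode the kinetochore and the spindle assembly checkpoint. They are 42 genes named by their place in 9 complexes or groups, and 40 of them had a probe set with exactly 1 gene symbol, out of 18404 genes with such a probe set on the arrays. CENPA and PMF1 share their probe sets with another gene and are not measured here. The list follows protein complexes and uses no measured value, though it was chosen with earlier results of these data known. RNA came from H661, an established human cell line from a large cell carcinoma of the lung, grown in RPMI medium with fetal bovine serum. One group of 3 samples carried a scrambled short hairpin RNA (Scr-sh) and the other group of 3 a short hairpin RNA against SALL4 (SALL4-sh), so that cells of both groups had been transduced with a lentivirus. A single hairpin sequence targeted SALL4, and the labels give no time between transduction and RNA extraction. Each sample was hybridised to 1 Affymetrix array, and the deposited value of a probe set is a normalized intensity on a linear scale whose lowest possible value, the floor, is 8.

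The kinetochore is the protein layer that assembles on the centromere of each chromosome and holds on to spindle microtubules during mitosis. Its inner part binds the centromeric histone CENPA, and its outer part, built from the NDC80, MIS12 and KNL1 complexes, grips the microtubules. Kinetochores without microtubules recruit the MAD and BUB proteins, which hold back the anaphase-promoting complex until every chromosome is attached. Most of these genes are transcribed in the G2 and M phases, so their RNA in a dividing culture follows the share of cells in those phases. In RNA from whole cultures, fewer cells in mitosis and less RNA per cell cannot be told apart.

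To see how many of these genes carry letters known from mitotic genes, their promoters were searched for such letters. The windows came from RefSeq (GRCh38.p14) and ran from 250 bases before the start of the gene to 50 bases from it on. They were listed for 34 of the 42 genes, and BUB3, CENPM, KNL1, KNTC1, CENPH, CENPL, TTK and BIRC5 had no entry. TTTGAA, the usual form of the cell cycle homology region that the MuvB complex binds, was found on either strand for 16 of the 34 genes (47.1%), against 18.2% of the 27305 genes in the promoter table. CCAAT, the letters bound by NF-Y, was found for 22 (64.7%) against 39.7% of all genes, and both together for 10 (29.4%) against 7.26%. TTTAAA, another form of the homology region, was found for 3 genes (8.82% against 14.5%), and no further form was searched. Any of the E2F letters TTTGGCGC, TTTCGCGC, TTTCCCGC and TTTGGCGG was found for 5 genes (14.7% against 4.05%). TTTGAA and TTTAAA cannot match at the same position, and a match is a run of letters and not a measured binding site.

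The 4 sequences below belong to genes whose RNA differed between the groups, and they show where such letters lie. Each line runs 5′ to 3′ on the strand of the gene, from 100 bases before the start of the gene to 30 bases from it on, with matches in capitals. The matches are TTTGAA in NUF2 and CENPN, TTTGAA on the opposite strand in SKA3, a pair of adjoining TTTAAA runs in CENPE, and CCAAT on the opposite strand in CENPN.
NUF2, chr1:163321854-163321983, plus strand: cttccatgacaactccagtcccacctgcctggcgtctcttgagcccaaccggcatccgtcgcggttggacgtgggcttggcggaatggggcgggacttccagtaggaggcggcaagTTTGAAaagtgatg
SKA3, chr13:21176523-21176652, minus strand: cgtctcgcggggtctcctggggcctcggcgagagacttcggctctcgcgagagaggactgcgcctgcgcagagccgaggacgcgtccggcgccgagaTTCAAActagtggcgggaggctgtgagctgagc
CENPE, chr4:103198314-103198443, minus strand: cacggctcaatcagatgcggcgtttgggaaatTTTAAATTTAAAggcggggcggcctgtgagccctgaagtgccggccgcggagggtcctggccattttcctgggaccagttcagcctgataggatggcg
CENPN, chr16:81007114-81007243, plus strand: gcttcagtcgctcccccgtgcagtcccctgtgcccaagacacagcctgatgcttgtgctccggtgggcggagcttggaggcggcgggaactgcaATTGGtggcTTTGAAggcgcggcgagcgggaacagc

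Of the other genes that differed between the groups, ZW10 had TTTGAA 224 bases and CCAAT on the opposite strand 146 bases before its start, and CENPI had none of the letters in its window. NUF2, SKA3, ZW10 and CENPE, which rose, and CENPN, which fell, thus had TTTGAA or TTTAAA in the window. Genes with a match thus included both directions of change.

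The knockdown was checked first. SALL4, a zinc finger transcription factor of stem cells, had intensities of 125, 104 and 130 in Scr-sh and 33.6, 31.9 and 26.5 in SALL4-sh. The means were 120 ± 13.8 and 30.7 ± 3.72 (SD, n = 3 each), and SALL4 fell by 1.97 on the log2 scale (adjusted p = 0.000644 from limma). The floor of 8 held 38.8% to 40.4% of the values of an array. Epithelial EPCAM reached 590 to 1113, the sum of 5 epithelial markers ran from 666 to 1001 in Scr-sh and from 911 to 1192 in SALL4-sh, KRT8 was at or near the floor on all 6 arrays, and CDH1 went from 10.5, 8 and 8.68 to 17.2, 16.1 and 17.3 (adjusted p = 0.00965 from limma). Endothelial markers (5 of 5) and leukocyte markers (3 of 4 measured) stood at the floor throughout, and the summed fibroblast markers were 154 to 168 in Scr-sh and 147 to 175 in SALL4-sh, mostly COL1A1 and COL3A1. The study states in general that its results come from 3 or more independent experiments, unless it says otherwise. No source used here says for these arrays whether the 3 samples of a group were separate cultures. A p-value here thus reflects how far these 6 samples scatter, and that scatter may be technical only.

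The control arrays were not alike in these genes. Of the 39 kinetochore and checkpoint genes that passed the filter on weak signals, 26 (66.7%) had their highest Scr-sh value on array Scr-sh 2, whereas 39.3% of all 13803 genes tested did. Their lowest Scr-sh value lay on Scr-sh 1 for 25 genes (64.1%), against 34.3% of all genes. The median deviation from the Scr-sh mean was -0.29 on Scr-sh 1, 0.34 on Scr-sh 2 and 0.03 on Scr-sh 3 in log2 units, where the medians of all genes lay between -0.02 and 0.01. The SALL4-sh arrays were closer together, with medians of -0.09, 0.07 and 0.11. BUB1, the checkpoint kinase, is an example, with 155, 315 and 227 in Scr-sh and 213, 270 and 264 in SALL4-sh. Other genes of mitosis, cohesion and proliferation leaned the same way by less, with 44 of 82 (53.7%) highest on Scr-sh 2 and a median of 0.11 there. The part of this spread in the differences between groups was not tested beyond leaving out each array.

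**Figure D1:**
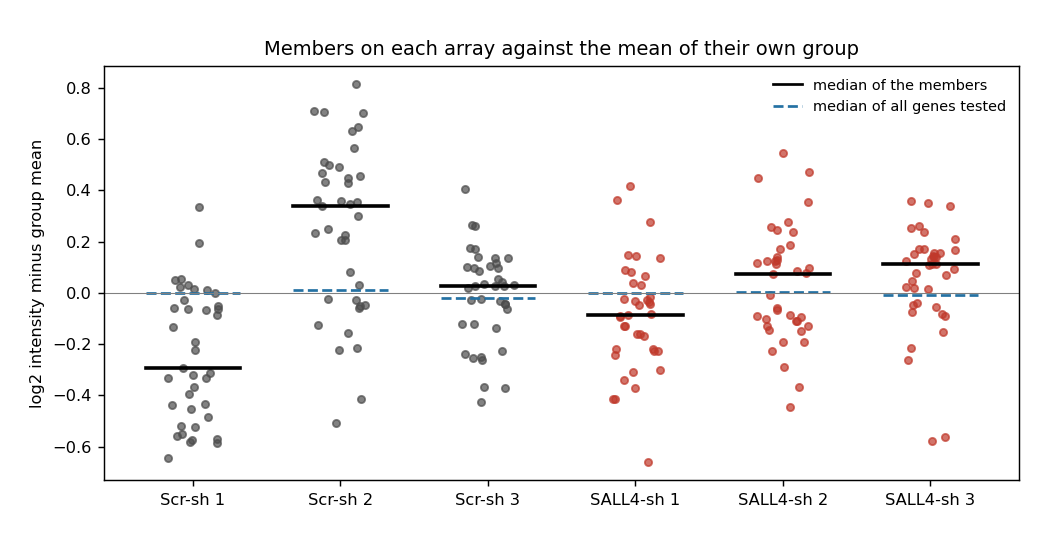
Log2 intensity of each of the 39 tested kinetochore and checkpoint genes on each array, minus the mean of its own group of 3 arrays (points). Black bars are the medians of these genes and dashed bars those of all 13803 genes tested. The genes sit low on Scr-sh 1 (median -0.29) and high on Scr-sh 2 (median 0.34), while the dashed bars stay near 0.

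To examine which kinetochore and checkpoint genes responded to the SALL4 hairpin, the groups were compared gene by gene with limma over the 13803 genes above the 25th percentile of mean log2 intensity. A gene passed at a Benjamini-Hochberg adjusted p under 0.05. Of the 39 tested genes, 5 were higher in SALL4-sh, namely SKA3, NUF2, CENPI, ZW10 and CENPE, and 1 was lower, CENPN. That is 15.4% of the genes, where 11.5% of all genes tested passed, 5.95% higher and 5.54% lower, so the share lay near the background. Groups did not overlap for 13 of the 39 (8 higher and 5 lower in SALL4-sh), or 33.3%, beside 28.9% of all genes tested (15.7% higher and 13.1% lower). Of the 39 values 23 were above 0 (59.0%, against 52.3% of all genes). The median log2 fold change was 0.15, against 0.02 for all genes. This median was 0.01 without array Scr-sh 1 and 0.26 without Scr-sh 2.

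The changed genes were scattered over 5 of the 9 groups. Without array Scr-sh 2, 5 genes were higher and 1 lower, while without any 1 of the other arrays 1 or 2 were higher and 0 or 1 lower. The number of all genes that passed moved alike, from 1585 with all arrays to 1587 without Scr-sh 2 and to 491 to 904 without any 1 of the others. With no filter on weak signals, NUF2 (higher) and CENPN (lower) passed and the other 4 did not, at a background of 2.51% of all genes, 1.18% higher and 1.33% lower. The adjusted p of SKA3, ZW10, CENPI and CENPE was then 0.117, 0.155, 0.177 and 0.230 from limma. A one-way analysis of variance per gene, a test that the study names, called 257 of all genes. By that one-way test CENPN passed (adjusted p = 0.0496), and NUF2 (adjusted p = 0.0544) and the other 4 genes (adjusted p = 0.132 to 0.228) did not. An exact permutation test of 3 against 3 arrays cannot give a p below 0.1, the value it gave for each of the 6 genes.

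The NDC80 complex is the rod that binds microtubules at the outer kinetochore, and its head is a pair of proteins, NDC80 and NUF2. NUF2 had intensities of 35.2, 56.5 and 42.7 in Scr-sh and 151, 133 and 144 in SALL4-sh. The means were 44.8 ± 10.8 and 143 ± 9.09 (SD, n = 3 each), and all SALL4-sh values lay far above all Scr-sh values. NUF2 rose 3.24-fold (95% confidence interval 2.38 to 4.41; log2 fold change 1.70, standard error 0.20, adjusted p = 0.00169 from limma). Without any 1 of the 6 arrays the log2 fold change of NUF2 was 1.54 to 1.88, and the adjusted p from limma was 0.00504 to 0.0268. NDC80, its partner, had 66.1, 135 and 109 in Scr-sh and 147, 158 and 195 in SALL4-sh. Its groups did not overlap either, at a log2 fold change of 0.74 (interval 0.15 to 1.32), and it missed the threshold (adjusted p = 0.107 from limma).

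The other end of the rod, which anchors it to the inner layers, is made of SPC24 and SPC25. SPC25 had 22.8, 22.8 and 25.7 in Scr-sh and 22.7, 20.0 and 23.8 in SALL4-sh, and its groups overlapped (log2 fold change -0.10, interval -0.46 to 0.25). SPC24 stood at the floor on 5 of the 6 arrays and at 8.71 on SALL4-sh 3, and was the 1 gene of the 40 left out by the filter. The log2 ratio of NUF2 to SPC25 was 1.80 higher in SALL4-sh on average, and that of NUF2 to NDC80 0.96 higher.

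In the MIS12 complex, which links inner and outer kinetochore, none of the 3 measured subunits passed, where 11.5% of all genes tested did. DSN1 had 38.3, 46.9 and 37.4 in Scr-sh and 26.9, 28.2 and 35.9 in SALL4-sh, lower on each SALL4-sh array, with means of 40.8 ± 5.24 and 30.3 ± 4.85 (SD, n = 3 each; log2 fold change -0.43, interval -0.84 to -0.03, adjusted p = 0.173 from limma). MIS12 and NSL1 had log2 fold changes of 0.22 and 0.18 with overlapping groups. In the KNL1 complex, KNL1, the scaffold on which the BUB proteins dock, had 93.6, 149 and 113 in Scr-sh and 130, 130 and 155 in SALL4-sh (log2 fold change 0.24, interval -0.21 to 0.70). ZWINT, its partner, had 17.01, 19.2 and 14.1 in Scr-sh and 18.3, 26.7 and 23.8 in SALL4-sh. The means were 16.8 ± 2.54 and 22.9 ± 4.27 (SD, n = 3 each; log2 fold change 0.44, interval -0.00282 to 0.89, adjusted p = 0.205 from limma). Neither pair of groups was apart.

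The RZZ complex brings dynein and the MAD1-MAD2 complex to kinetochores without microtubules, and the log2 fold changes of its subunits had both signs. ZW10 had 16.6, 28.1 and 14.7 in Scr-sh and 47.9, 35.4 and 47.7 in SALL4-sh, with no overlap and means of 19.8 ± 7.26 and 43.6 ± 7.14 (SD, n = 3 each). It rose 2.27-fold (interval 1.53 to 3.38; log2 fold change 1.18, standard error 0.26, adjusted p = 0.0184 from limma). ZWILCH had 90.0, 145 and 112 in Scr-sh and 66.1, 83.4 and 63.4 in SALL4-sh, each SALL4-sh value below each Scr-sh value. Its log2 fold change was -0.69 (interval -1.16 to -0.21), and it missed the threshold (adjusted p = 0.0705 from limma). After cyclic loess normalization ZWILCH passed (log2 fold change -0.76, adjusted p = 0.0483 from limma), as it did with a replicate block (adjusted p = 0.0389 from limma). KNTC1, which encodes ROD, had a log2 fold change of 0.51 with overlapping groups. The log2 ratio of ZW10 to ZWILCH was 1.87 higher in SALL4-sh. ZW10 passed without array Scr-sh 2 (adjusted p = 0.00971 from limma) and missed the threshold without any 1 of the other 5 arrays (adjusted p = 0.0736 to 0.102 from limma).

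In the inner kinetochore, 13 genes were tested, of which 1 rose and 1 fell (15.4%, against 11.5% of all genes). CENPI, a subunit of the CENPH-CENPI-CENPK-CENPM group of the constitutive centromere network, had 24.9, 49.6 and 34.2 in Scr-sh and 99.1, 129 and 63.1 in SALL4-sh, with means of 36.2 ± 12.5 and 97.1 ± 33.0 (SD, n = 3 each). It rose 2.67-fold (interval 1.65 to 4.33; log2 fold change 1.42, standard error 0.31, adjusted p = 0.0190 from limma). The SALL4-sh values of CENPI spread over a wide range but stayed above all Scr-sh values. CENPI passed without Scr-sh 2 (adjusted p = 0.0247 from limma) or SALL4-sh 3 (adjusted p = 0.0364 from limma) and not without any 1 of the other 4 arrays (adjusted p = 0.0743 to 0.127 from limma).

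CENPN, which reads the CENPA nucleosome together with CENPL, had 90.1, 96.3 and 96.5 in Scr-sh and 54.8, 55.7 and 64.1 in SALL4-sh. The means were 94.3 ± 3.62 and 58.2 ± 5.12 (SD, n = 3 each), and the groups were apart. The level was 0.616 of that in Scr-sh (interval 0.484 to 0.783; log2 fold change -0.70, standard error 0.15, adjusted p = 0.0201 from limma). CENPN missed the threshold without Scr-sh 3, SALL4-sh 1 or SALL4-sh 2 (adjusted p = 0.0728 to 0.0790 from limma). CENPL, its partner, had a log2 fold change of 0.04 (interval -0.63 to 0.72). The log2 ratio of CENPI to CENPN was 2.12 higher in SALL4-sh.

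The other partners of CENPI did not pass. CENPK had 40.4, 104 and 49.2 in Scr-sh and 45.2, 49.4 and 45.3 in SALL4-sh, so that a single high control array set its log2 fold change of -0.34. Without Scr-sh 2 that value was 0.06. CENPH was at the floor on 4 of the 6 arrays, and CENPM had a log2 fold change of 0.08. CENPC, the backbone that joins the centromere to the MIS12 complex, had 33.9, 41.9 and 43.5 in Scr-sh and 45.4, 48.7 and 44.3 in SALL4-sh. Its groups did not overlap although the log2 fold change was 0.22 (interval -0.15 to 0.59). CENPT, the second such bridge, had 19.6, 18.6 and 18.5 in Scr-sh and 15.6, 13 and 16.2 in SALL4-sh, lower on each SALL4-sh array (log2 fold change -0.35, adjusted p = 0.220 from limma). CENPW, the histone-fold partner of CENPT, had -0.02. In the CENPO group, CENPO had 0.32, CENPP -0.41, CENPQ -0.24 and CENPU 0.50, all with overlapping groups. CENPP stood at the floor on SALL4-sh 3, and its log2 fold change was -0.12 without that array.

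The corona is the fibrous outermost layer. CENPE, a kinesin that carries chromosomes toward the plate, had 20.5, 47.3 and 29.2 in Scr-sh and 61.6, 58.3 and 69.3 in SALL4-sh. The means were 32.3 ± 13.6 and 63.1 ± 5.68 (SD, n = 3 each), and the 3 SALL4-sh values were close together and above all Scr-sh values. CENPE rose 2.06-fold (interval 1.34 to 3.17; log2 fold change 1.04, standard error 0.27, adjusted p = 0.0396 from limma). It passed without Scr-sh 2 (adjusted p = 0.0119 from limma) and not without any 1 of the other 5 arrays (adjusted p = 0.108 to 0.162 from limma). CENPF, a large coiled-coil protein that appears in G2, had 158, 262 and 234 in Scr-sh and 286, 344 and 290 in SALL4-sh. Its groups were also apart, with a log2 fold change of 0.52 (interval 0.04 to 1.00, adjusted p = 0.165 from limma).

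The SKA complex tracks microtubule ends together with NDC80. SKA3 had the largest log2 fold change of the 40 genes, with 10.5, 23.3 and 12.02 in Scr-sh and 40.1, 86.3 and 73.1 in SALL4-sh. The Scr-sh values lay near the floor and the SALL4-sh values well above it, with no overlap and means of 15.3 ± 6.998 and 66.5 ± 23.8 (SD, n = 3 each). SKA3 rose 4.42-fold (interval 2.55 to 7.66; log2 fold change 2.14, standard error 0.35, adjusted p = 0.00606 from limma). It missed the threshold without SALL4-sh 2 (adjusted p = 0.0719 from limma) or SALL4-sh 3 (adjusted p = 0.0555 from limma). SKA1 had 12.4, 18.4 and 16.7 in Scr-sh and 14.8, 18.7 and 18.7 in SALL4-sh, with overlap (log2 fold change 0.15, interval -0.30 to 0.59).

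SKA2, the third subunit, had 275, 450 and 359 in Scr-sh and 277, 304 and 418 in SALL4-sh on its brighter probe set (log2 fold change -0.11, interval -0.63 to 0.41). The numbers of the 20 nearest probe sets with 1 gene all belong to chromosome 9, whereas SKA2 lies on chromosome 17, so it is uncertain that this probe set reads SKA2. None of the other 41 probe sets of the 40 genes was out of place in this way. The dimmer probe set of SKA2, numbered among chromosome 17 genes, had a log2 fold change of -0.15 with overlapping groups. The log2 ratio of SKA3 to SKA1 was 2.00 higher in SALL4-sh.

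**Figure D2:**
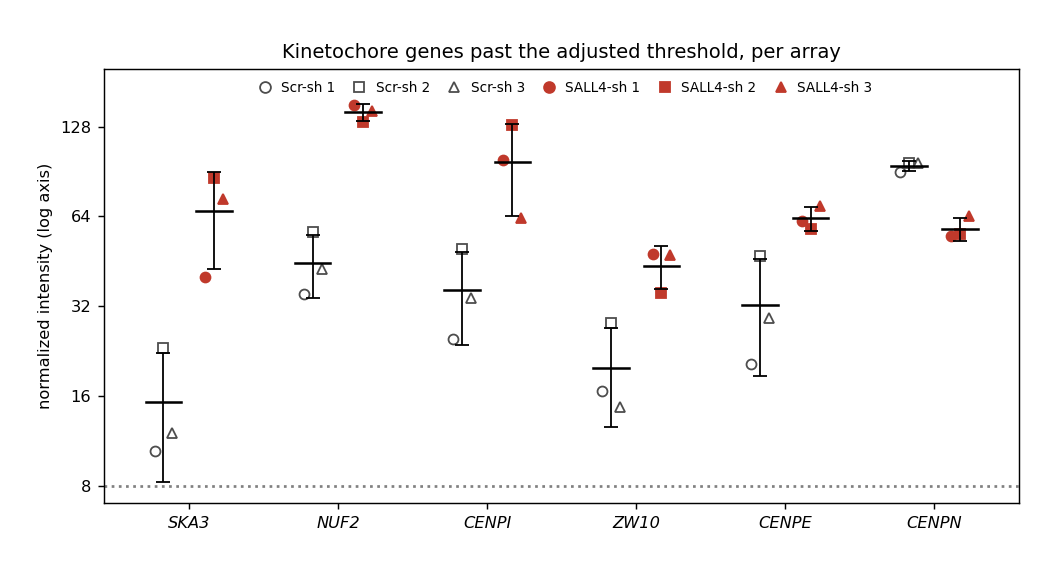
Normalized intensity (log axis) of the 6 kinetochore genes past the adjusted threshold on each array. Open grey symbols are Scr-sh and filled red symbols SALL4-sh arrays, with 1 shape per replicate number. Horizontal bars give the mean of the 3 arrays with their SD as whiskers, and a dotted line marks the lowest possible value, 8. The groups are apart for each gene, with SKA3, NUF2, CENPI, ZW10 and CENPE higher and CENPN lower in SALL4-sh.

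The ratios between genes of 1 complex given above were chosen after the values were seen, each with a gene past the threshold. Of the 8 such ratios computed, 6 had groups that did not overlap. The log2 ratios of ZW10 to KNTC1 and of CENPE to CENPF were 0.67 and 0.52 higher in SALL4-sh, with overlapping groups. An exact permutation test of 3 against 3 arrays, which cannot give a p below 0.1, gave adjusted p = 0.133 to 0.2 for the 8 ratios.

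The spindle checkpoint proper was represented by 6 genes, none of which passed, where 11.5% of all genes tested did. MAD2L1, which encodes the MAD2 protein that inhibits CDC20, had 150, 134 and 187 in Scr-sh and 182, 170 and 255 in SALL4-sh, with means of 157 ± 27.2 and 202 ± 46.0 (SD, n = 3 each). That was the largest difference of the 6 (log2 fold change 0.35, interval -0.12 to 0.82, adjusted p = 0.349 from limma), and the groups overlapped. BUB1B, which encodes BUBR1 of the mitotic checkpoint complex, had a log2 fold change of 0.31, BUB1 of 0.15, and TTK, the kinase MPS1 at the top of the pathway, of -0.05. BUB3, the adaptor of both BUB kinases, had -0.11. MAD1L1, the kinetochore anchor of MAD2, had 20.3, 19.4 and 20.6 in Scr-sh and 17.7, 19.2 and 16.9 in SALL4-sh. It was lower on each SALL4-sh array by a small amount (log2 fold change -0.17, interval -0.51 to 0.17). The intervals of all 6 genes lay within a 2-fold change in either direction.

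The chromosomal passenger complex corrects wrong attachments through the kinase AURKB. AURKB had 134, 74.7 and 119 in Scr-sh and 102, 59.3 and 74.1 in SALL4-sh, with overlap. The means were 109 ± 30.9 and 78.6 ± 21.8 (SD, n = 3 each; log2 fold change -0.47, interval -1.07 to 0.13, adjusted p = 0.333 from limma). BIRC5, which encodes survivin, had 201, 150 and 264 in Scr-sh and 117, 175 and 147 in SALL4-sh. The groups overlapped (log2 fold change -0.47, interval -1.01 to 0.07). On its second probe set the groups were apart, at 79.5, 85.5 and 90.0 against 74.2, 74.2 and 69.6, with a log2 fold change of -0.23. INCENP, the scaffold, and CDCA8, which encodes borealin, had -0.08 and 0.26.

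**Figure D3:**
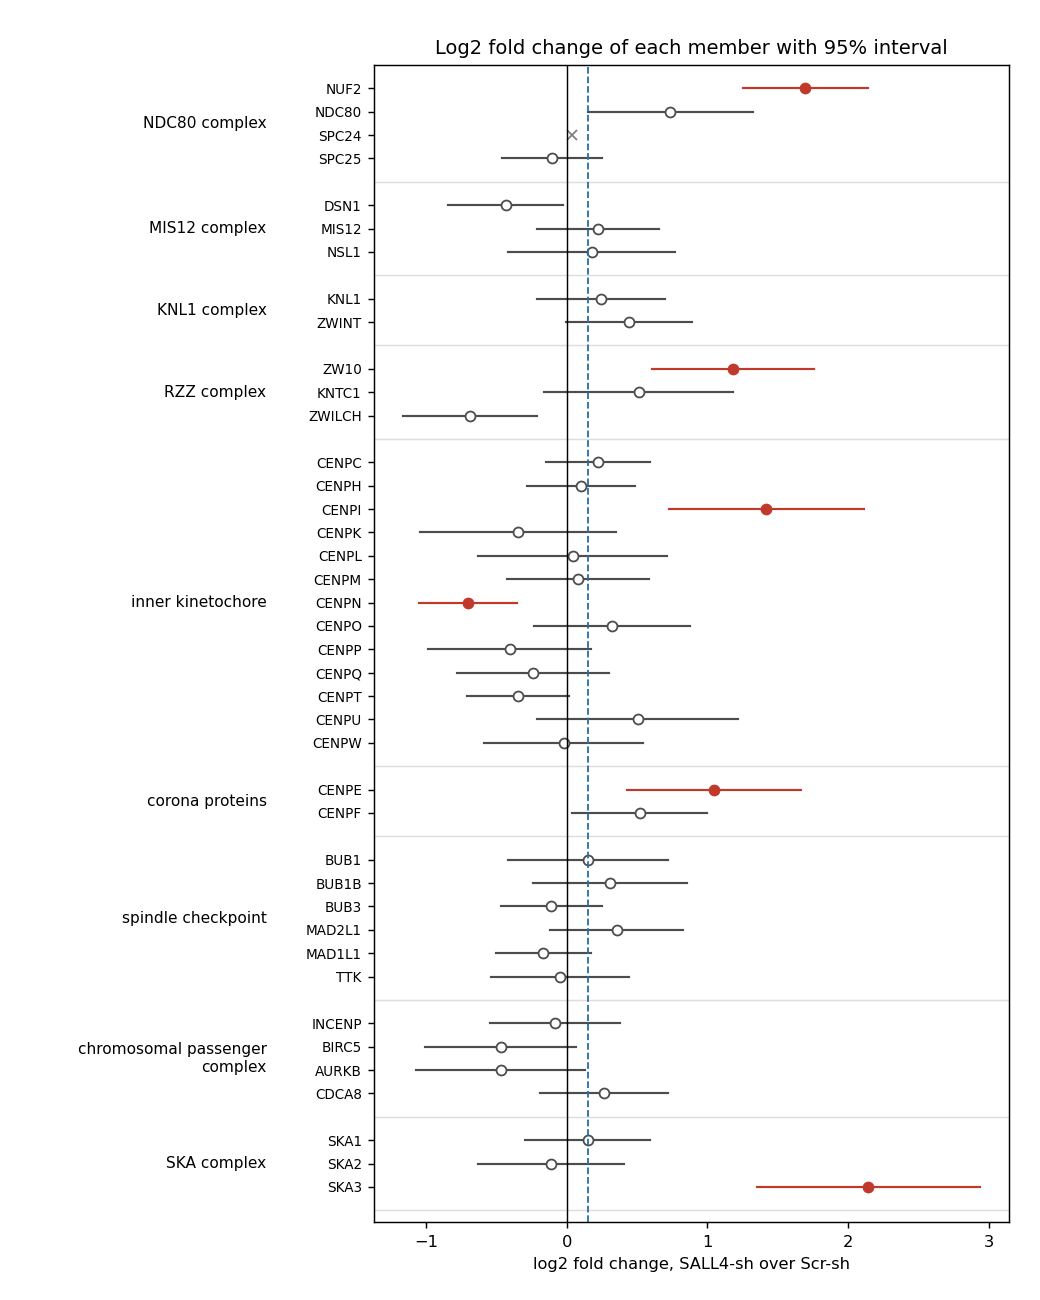
Log2 fold change (SALL4-sh over Scr-sh) by gene for the 40 measured genes by complex, with 95% intervals from limma (n = 3 arrays per group). Filled red points passed an adjusted p of 0.05, open points did not, the cross is SPC24, which was not tested, and the dashed line is the median of 0.15. The 6 changed genes lie in 5 of the 9 groups, and the intervals of the checkpoint genes all cross 0.

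Of the 33 tested genes that did not pass, 25 had an interval that lay within a 2-fold change in either direction. The other 8 were NDC80, KNTC1, ZWILCH, CENPK, CENPU, CENPF, BIRC5 and AURKB, for which a 2-fold difference was not excluded by the interval. Among the 25, CENPH stood at the floor on 4 arrays and CENPP on 1, and SKA2 was read on its uncertain probe set. For CENPH, CENPP and SKA2 the interval does not bound the difference in RNA.

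Other genes of the same processes were examined in 5 lists with 82 measured genes, all of which were tested. Of these, 8 were higher and 9 lower (20.7%, against 11.5% of all genes), with a median log2 fold change of 0.07. The lists were chosen with earlier results of these data known, and their share was not tested against that of all genes. With no filter 7 of the 17 passed, namely CENPV, MYBL2, CLASP1, CDC20, KIF4A, CKAP5 and FOXM1. Without array Scr-sh 2 the number was 19, and without any 1 of the other arrays 7 to 10. Of all genes, 1587 passed without Scr-sh 2 and 491 to 904 without any 1 of the others. Among 19 other centromere and kinetochore genes, 2 were higher and 3 lower (26.3%, against 11.5% of all genes). KIF18A, a kinesin that shortens kinetochore microtubules, had 77.5, 140 and 85.9 in Scr-sh and 211, 328 and 220 in SALL4-sh (log2 fold change 1.34, adjusted p = 0.0129 from limma). CENPV, a protein that joins the passenger complex at centromeres, rose by 1.23 on the log2 scale. CLASP1, which governs microtubule growth at kinetochores, and CLIP1, a plus-end binding protein, fell by 0.88 and 0.78 on the log2 scale, as did ITGB3BP, which encodes CENPR of the CENPO group, by 0.75.

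Among 13 genes of checkpoint control and mitotic exit, 1 was higher and 3 lower (30.8%, against 11.5% of all genes). CDC20, the target of the checkpoint, had 91.0, 75.0 and 71.6 in Scr-sh and 28.7, 33.3 and 30.9 in SALL4-sh, and fell by 1.35 on the log2 scale (adjusted p = 0.00205 from limma). TRIP13, the ATPase that remodels MAD2, and PTTG1, which encodes securin, fell by 0.82 and 0.68 on the log2 scale. USP44, a deubiquitinase that acts on CDC20, rose from 23.8, 34.0 and 18.3 to 45.7, 66.4 and 63.7 (log2 fold change 1.24, adjusted p = 0.0143 from limma). CDC20 RNA was thus lower while none of its inhibitors MAD2L1, BUB1B and BUB3 passed the threshold, and the difference between them was not tested.

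Of 13 cohesion genes, STAG2, a subunit of the cohesin ring, was higher (log2 fold change 1.07) and none lower (7.69%, against 11.5% of all genes). Of the 13 values 10 were above 0 (76.9%), as were 52.3% of those of all genes. Of 19 spindle genes, 15.8% passed, against 11.5% of all genes. KIF14, a kinesin of cytokinesis, was higher (0.85), and CKAP5, a microtubule polymerase, and KIF4A, a chromokinesin, were lower (-1.59 and -0.79). CKAP5 stood at 448, 411 and 383 in Scr-sh and at 139, 123 and 153 in SALL4-sh. Of 18 proliferation markers, MCM4, RRM2 and MYBL2 were higher and FOXM1 lower (22.2%, against 11.5% of all genes). FOXM1, a transcription factor of mitotic genes, had 134, 110 and 112 in Scr-sh and 39.8, 45.01 and 42.5 in SALL4-sh (log2 fold change -1.48, adjusted p = 0.00133 from limma). MYBL2, which joins MuvB at the cell cycle homology region, had 48.4, 55.8 and 42.3 in Scr-sh and 118, 96.2 and 103 in SALL4-sh (log2 fold change 1.12, adjusted p = 0.00472 from limma). These 2 regulators went in opposite directions, and MKI67 and TOP2A did not pass, at log2 fold changes of 0.25 and -0.23.

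**Figure D4:**
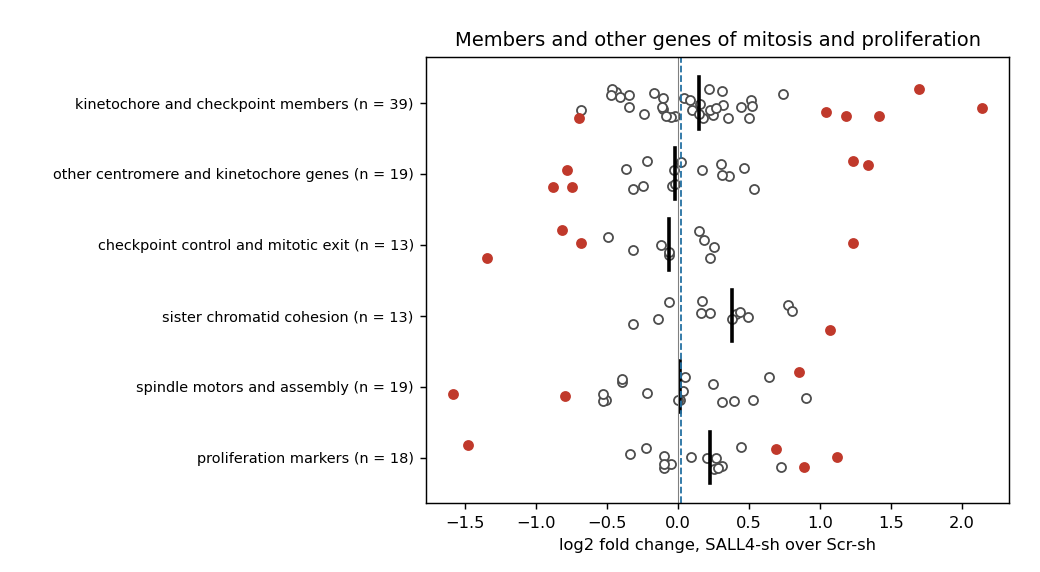
Log2 fold changes (SALL4-sh over Scr-sh) for the 39 tested kinetochore and checkpoint genes and for the 5 lists of related genes. Points are genes, filled red where the adjusted p was under 0.05, black bars are list medians, and the dashed line is the median of all genes tested, 0.02. Each row holds changed genes, and in every row except cohesion they lie on both sides of 0.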

How the data were processed

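Expression was measured in 6 H661 samples (3 Scr-sh, 3 SALL4-sh). The authors deposited 1 table of intensity values for 32321 probe sets, for which the submitters' processing notes name RMA with no version given in the sources used here. Values are linear with a floor of 8, and precision is limited by having 3 arrays in a group. Log2 values were taken, probe sets with 1 symbol in the platform annotation were kept (19158, while 1388 had several and 11775 none), and the brightest stood for each gene. A gene was tested if its mean log2 intensity over the 6 arrays was above the 25th percentile of all genes (8.28 on the linear scale), since 3893 genes at the floor on every array have no spread and lowered the prior degrees of freedom of limma to 0.422 (5.33 with the filter). Linear models were fitted to the log2 values with limma 3.58.1 under R 4.3.3 (lmFit, eBayes, Benjamini-Hochberg), tested on simulated data first.

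The genes, lists and tests were chosen with earlier results of these data known. Array values, means and SDs are given for SALL4 and for kinetochore and checkpoint genes past the threshold. They are also given for the gene with the largest log2 fold change of each complex. Array values alone are given for some others, which were chosen after their values were seen. Of each related list, the genes past the threshold are named, up to 4, with ITGB3BP added, some with direction or log2 fold change alone. Of these, KIF14, RRM2, ITGB3BP, TRIP13 and PTTG1 passed narrowly (adjusted p = 0.0400 to 0.0495 from limma). Alternatives were no filter, a filter at the 50th percentile, median centring, cyclic loess, quantile normalization and a trended and robust variance prior. Further alternatives were a replicate block, the one-way analysis of variance that the study names, the mean of probe sets and each array left out.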

Additional observations from a re-analysis of the deposited data

How the results depend on the processing

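The log2 fold changes of the 39 tested kinetochore and checkpoint genes kept their sign under every alternative that used all 6 arrays. Median centring, quantile normalization, the 50th percentile filter (35 of the genes tested), the mean of probe sets and eBayes with trend and robust changed none of their calls. Cyclic loess and the replicate block each added ZWILCH as lower (adjusted p = 0.0483 and 0.0389 from limma), for 2 lower. With no filter, 1 gene was higher, 1 lower and 2 complexes held a changed gene. Over all genes 462 passed then, 218 higher and 244 lower, and 7 in the related lists. The one-way test that the study names called 0 of the 39 higher and 1 lower, in 1 complex, with 257 genes passing in all (113 higher, 144 lower) and 5 in the related lists. The cause was not tested, except that the per-gene test borrows no spread from other genes.

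With 1 array left out, 1 to 5 of the genes were higher, 0 to 1 lower, 1 to 5 complexes held a changed gene, and 13 to 22 genes had groups that did not overlap (33.3% to 56.4%). Of all genes tested in those fits, 36.8% to 42.3% had such groups, more than the 28.9% with all arrays, since smaller groups overlap less often. Over all genes 491 (without SALL4-sh 2) to 1587 (without Scr-sh 2) passed, 185 to 911 higher and 306 to 676 lower, and 7 to 19 in the related lists. The median log2 fold change ran from 0.01 to 0.26. Among genes past no threshold, the sign turned for NSL1 (-0.0178 to 0.50), CENPH (-0.0276 to 0.17), CENPK (-0.62 to 0.0640), CENPL (-0.25 to 0.40), CENPM (-0.0574 to 0.30), CENPQ (-0.46 to 0.00459), CENPW (-0.21 to 0.19), BUB1 (-0.11 to 0.40), TTK (-0.27 to 0.12), INCENP (-0.26 to 0.0243), SKA1 (-0.0187 to 0.27) and SKA2 (-0.29 to 0.0611).

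Whether replicate numbers mark paired samples was not tested. Same-numbered arrays deviated together with correlations of 0.144, 0.113 and -0.000886 over 13803 genes, and arrays of unlike number with -0.152 to 0.0341. The replicate block gave 903 genes higher and 803 lower, 1706 in all, against 1585 without it. The second probe sets of SKA2 and BIRC5, added after the data were seen, gave log2 fold changes of -0.15 and -0.23. At the floor, where SPC24 stood on 5 arrays, CENPH on 4 and CENPP on 1, a value is only an upper bound.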
